A study of Sus scrofa with 16 samples.

Results

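The pituitary libraries of 16 gilts fell into a posterior-lobe-rich side of 8 and a posterior-lobe-poor side of 8. The sides were set by the mean log2 CPM, the read count scaled to the size of the library, of AVP, OXT and GFAP in each library, with a mean above 1.5 counted as rich. AVP and OXT encode vasopressin and oxytocin, and GFAP encodes an intermediate filament of astroglia. These 3 genes chose the sides, so their levels are described without a test and are no evidence about the split. The sides are no labelled condition either. An adjusted p-value given below for another gene describes how closely that gene followed the 3 split genes.

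All animals were Puławska females, and the tissue is given as pituitary in the labels and the methods, although the extraction text of the labels speaks of fat and names another RNA reagent. LFC (low feed conversion, replicates 1 to 8) and HFC (high feed conversion, replicates 9 to 16) are the labelled groups, feed conversion being the feed used per unit of gain, and each had 8 gilts. Their age is 3 months in the labels and higher, at slaughter, in the methods of the study. The methods also state that the pigs were unrelated, came from different farms, were kept under one feeding and housing regime, and that each pituitary was taken whole and homogenised. The rich side held LFC replicates 1, 5 and 7 and HFC replicates 10, 11, 13, 14 and 16. The poor side held 5 LFC and 3 HFC libraries, and the feed group was therefore a covariate in the main fit across genes.

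The posterior lobe, or neurohypophysis, is an outgrowth of the hypothalamus. It holds the axon endings of neurons whose cell bodies lie in the hypothalamus and which release vasopressin and oxytocin into the blood, and around these endings lie specialised astroglia called pituicytes. It adjoins the intermediate lobe, with its POMC-producing melanotrophs, while the anterior lobe makes growth hormone, prolactin, thyrotropin, the gonadotropins and corticotropin. In whole-gland RNA, fewer cells of a type and less RNA per cell cannot be told apart.

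AVP ranged from 0 to 0.825 CPM with a median of 0.384 on the poor side, and from 3.64 to 58.3 CPM with a median of 29.1 on the rich side. OXT ranged from 0 to 0.412 CPM on the poor side and from 9.60 to 84.8 on the rich side. GFAP ranged from 0.504 to 1.87 CPM on the poor side and from 6.38 to 234 on the rich side. None of the 3 genes overlapped between the sides. The mean over the 3 genes lay between 3.62 and 6.42 log2 CPM on the rich side. The members just inside the threshold were LFC replicate 7 at 3.62 and HFC replicate 10 at 3.64, and the library just outside it was LFC replicate 6 at -0.24. The 8 libraries highest in AVP and OXT alone and the 8 highest in GFAP alone were the same 8. HFC replicate 11 differed from the other rich libraries in that its AVP and OXT were high while its GFAP, at 6.38 CPM, was the lowest of the side.

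**Figure D1:**
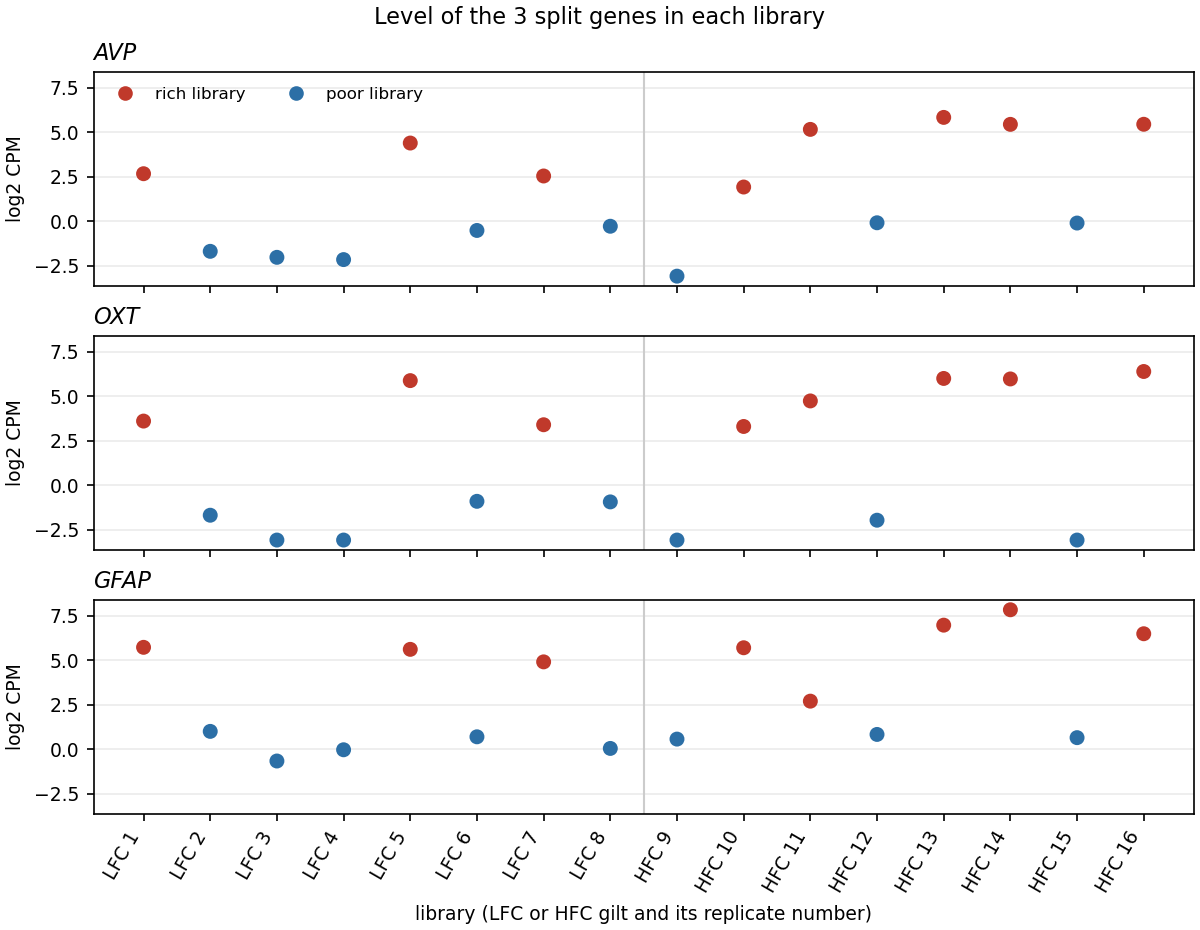
Level of AVP, OXT and GFAP (log2 CPM, vertical axis) in each of the 16 libraries (horizontal axis), with rich libraries in red and poor libraries in blue and a grey line between LFC and HFC. Rich libraries lie above all poor ones in each panel, and the GFAP point of HFC replicate 11 lies lowest among the rich ones.

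Total counts were 17718599 ± 3493954 on the poor side and 15868338 ± 3694730 on the rich side (SD, n = 8 each), a difference within the spread of the libraries (exact permutation test, two-sided p = 0.316). A gene span index, the mean log2 CPM of the longest 10% of genes minus that of the shortest 10%, was -0.111 ± 0.270 on the poor side and -0.582 ± 0.695 on the rich side (exact permutation test, two-sided p = 0.0977). The lowest indices, all on the rich side, were -1.85 in LFC replicate 5, -1.31 in HFC replicate 13 and -0.89 in HFC replicate 14. HFC replicate 14 also held skeletal muscle transcripts. The summed level of the 8 muscle genes tested was 28532 CPM in that library and at most 134 CPM in any other. Other muscle genes did not pass the filter on low counts and are not in this sum. Among them TNNT3 had 61 counts on the poor side and 74308 on the rich side. The main counts are therefore given without these libraries too, and with the gene span index as a further covariate. Beyond these fits, the part of these features in the results below was not tested.

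Of 14316 genes tested beside the 3 split genes, 332 (2.32%) followed the split by the quasi-likelihood test of edgeR, with a Benjamini-Hochberg adjusted p-value up to 0.05 and a 1.3-fold change or more. These are the genes called below, and 3014 genes (21.1%) were under an unadjusted p of 0.05. Of them 281 (1.96% of the genes tested) were higher and 51 (0.356%) were lower in the rich libraries. The median log2 fold change over all tested genes was 0.02. In 87 genes (0.608%) every rich library lay above every poor one, and in 33 (0.231%) every rich library lay below. The number called fell to 203 without HFC replicate 14, of which 195 were among the 332. It fell to 67 without LFC replicate 5, HFC replicate 13 and HFC replicate 14 together, of which 54 were among the 332. With the gene span index as a further covariate 265 were called (224 higher, 41 lower), and 173 of them were among the 332.

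Among the largest differences were those of transcription factors and thyroid hormone genes known from pituicytes and from their hypothalamic relatives, the tanycytes. Of 8 tested transcription factors of pituicytes, 4 were called higher (RAX, LHX2, OTX2 and SOX8) and 0 lower. Over all genes, 1.96% were called higher and 0.356% lower. The median log2 fold change was 1.31 over the 8, against 0.02 over all genes. SOX9, TBX3, NFIA and SIX6 did not pass. RAX, LHX2 and OTX2 passed the filter on low counts through the rich side alone, as did HEPACAM, FABP7, SLCO1C1, COL25A1, OLIG1, SOX10, RNASE1, RPE65, SCRG1 and TSHR below. All 14 genes of that kind were called, and since they had to differ to enter, their calls and p-values are no support for the split. STRA6, PMP2, BCAN and UGT8 below reached the minimum of 0.581 CPM in 4, 4, 2 and 2 poor libraries, short of the 8 needed. They entered mostly through the rich side, so their calls and p-values are no support either. NKX2-1 and SOX2 are not analysed here.

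RAX, a homeobox factor of the eye field and the ventral hypothalamus (pig assembly Sscrofa11.1, chromosome 1, 161679154 to 161683486), was at 0 in 7 of the 8 poor libraries and at 0.0657 CPM in HFC replicate 9. In the rich libraries RAX ranged from 0.881 to 33.9 CPM with a median of 4.18. The groups did not overlap. The poor side held 1 RAX count in all and the rich side 1115, a ratio of shares of 1245 with a 95% counting interval of 223 to 49219, which covers counting error only (adjusted p = 7.95e-05).

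LHX2, a LIM homeobox factor needed for the neurohypophysis to form in the mouse (chromosome 1, 264900931 to 264920888), ranged from 0 to 0.412 CPM with a median of 0.129 on the poor side and from 4.14 to 127 CPM with a median of 12.4 on the rich side. Every rich library was above every poor one. The log2 fold change was 6.78 (SE 0.732, adjusted p = 0.000133). OTX2, a homeobox factor of the forebrain and eye, ranged from 0 to 0.0824 CPM on the poor side and from 1.09 to 59.5 CPM on the rich side, again without overlap (log2 fold change 6.89, SE 1.11, adjusted p = 0.00501). HFC replicate 16 was the highest library in RAX, LHX2 and OTX2, and HFC replicate 11 was next. SOX8, a factor of glial lineages, was shifted less, from 1.51 to 3.55 CPM on the poor side and from 3.80 to 26.8 CPM on the rich side (log2 fold change 1.68, SE 0.379, adjusted p = 0.0298). SOX8 was called in 9 of the 16 fits that left out 1 library. It was not called without LFC replicate 5, HFC replicate 13 and HFC replicate 14 together (adjusted p = 0.0847).

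Of 9 tested genes enriched in pituicytes and tanycytes, 4 were called higher and 0 lower, against 1.96% and 0.356% of all genes. Their median log2 fold change was 1.75. SLCO1C1 and COL25A1 among them passed the filter through the rich side alone. CRYM, a cytosolic protein that binds thyroid hormone (chromosome 3, 24815010 to 24835836), was even among the poor libraries, at 4.22 to 7.09 CPM with a median of 6.08. It ranged from 103 to 1732 CPM with a median of 665 in the rich libraries. The lowest rich library was far above the highest poor one, and the log2 fold change was 6.37 (SE 0.596, adjusted p = 7.95e-05). SLCO1C1, a carrier that takes thyroxine into cells of the brain, ranged from 0 to 0.126 CPM on the poor side and from 4.28 to 55.3 CPM on the rich side, without overlap (log2 fold change 7.62, SE 0.806, adjusted p = 0.000117).

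COL25A1, a membrane-bound collagen, and NES, the intermediate filament nestin of neural progenitors, also separated the sides. COL25A1 ranged from 0 to 0.526 CPM on the poor side and from 1.33 to 46.4 CPM on the rich side (log2 fold change 4.93, SE 0.859, adjusted p = 0.00847). NES ranged from 5 to 10.9 CPM on the poor side and from 12.9 to 81.2 CPM on the rich side (log2 fold change 2.55, SE 0.390, adjusted p = 0.00351). The other genes of the list overlapped between the sides. DIO2, the deiodinase that activates thyroxine, had medians of 109 CPM on the poor side and 73.6 CPM on the rich side (log2 fold change -0.39, adjusted p = 0.269). SCN7A, a sodium channel of glia, had medians of 5.26 and 2.60 CPM (log2 fold change -0.81, adjusted p = 0.344).

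The next genes come from no fixed list and were named for their rank among the 15 higher genes with the smallest adjusted p-values or the 8 with the largest folds. RPE65, the retinoid isomerase of the visual cycle, was at 0 in 6 poor libraries, reached 0.0629 CPM in the others, and ranged from 1.62 to 63.3 CPM on the rich side. The poor side held 2 RPE65 counts in all and the rich side 1878, a ratio of shares of 1049 with a 95% counting interval of 290 to 8664 (adjusted p = 0.000144). STRA6, a receptor for retinol uptake, ranged from 0.102 to 2.20 CPM on the poor side and from 7.30 to 75.7 CPM on the rich side (log2 fold change 4.61, SE 0.540, adjusted p = 0.000256). In both genes every rich library was above every poor one.

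CRABP1, which binds retinoic acid in the cytosol, ranged from 0.683 to 4.60 CPM on the poor side and from 18.0 to 469 CPM on the rich side (log2 fold change 4.79, SE 0.680, adjusted p = 0.00186). TSHR, the receptor of thyrotropin, ranged from 0 to 0.204 CPM on the poor side and from 1.15 to 38.4 CPM on the rich side (log2 fold change 5.74, SE 0.895, adjusted p = 0.00422). RNASE1, a secreted ribonuclease, ranged from 0.0511 to 0.566 CPM on the poor side and from 3.17 to 23.3 CPM on the rich side (log2 fold change 4.93, SE 0.485, adjusted p = 7.95e-05). None of these genes overlapped between the sides. The same held for PTN, the heparin-binding growth factor pleiotrophin, with a log2 fold change of 2.26 (SE 0.276, adjusted p = 0.000374), and for SCRG1, with a log2 fold change of 6.27 (SE 0.784, adjusted p = 0.000452).

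**Figure D2:**
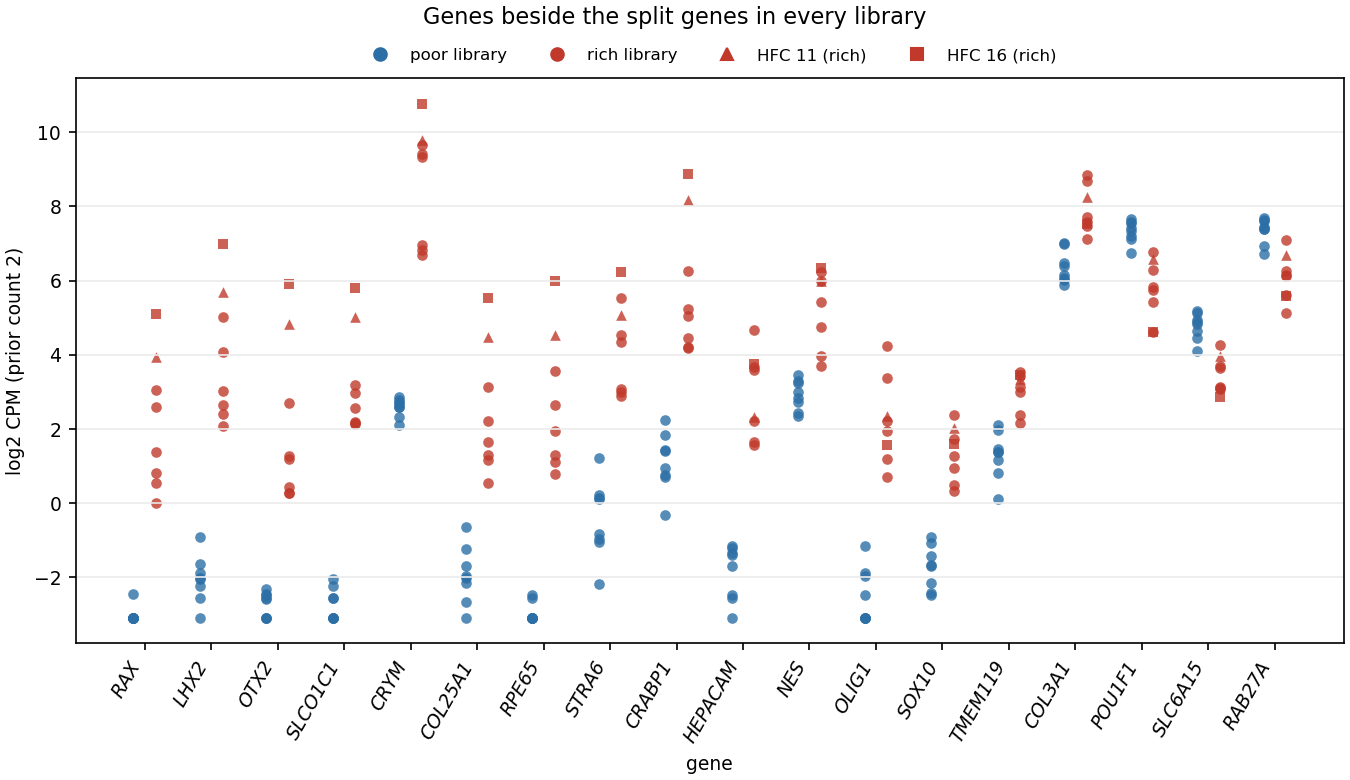
Level (log2 CPM with a prior count of 2, vertical axis) of 18 named genes (horizontal axis), with 1 point per library, poor libraries in blue and rich libraries in red. Rich points of RAX, LHX2, OTX2 and CRYM lie above all poor points, HFC replicate 16 (square) and HFC replicate 11 (triangle) lie at the top of these genes, and POU1F1, SLC6A15 and RAB27A lie lower on the rich side.

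Astroglial genes followed the split in part. Of 23 tested genes of astroglial structure and transport, 7 were called higher and 0 lower, against 1.96% and 0.356% of all genes. Their median log2 fold change was 0.68. HEPACAM and FABP7 among them passed the filter through the rich side alone. HEPACAM, an adhesion molecule of glia, ranged from 0 to 0.329 CPM on the poor side and from 2.82 to 25.2 CPM on the rich side (log2 fold change 5.42, SE 0.603, adjusted p = 0.000156). It separated all libraries of the sides, as did FABP7, the fatty acid-binding protein of radial glia, with a log2 fold change of 3.69 (SE 0.615, adjusted p = 0.0066).

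BCAN, the brain proteoglycan brevican, AGT, angiotensinogen, and MT3, the metallothionein of brain, were called with overlapping sides. Their log2 fold changes were 3.23, 2.71 and 1.43. MT3 was called in 4 of the 16 fits that left out 1 library, and its adjusted p was 0.0582 without HFC replicate 14. NDRG2, found in astrocytes, was called at 0.76 (SE 0.163, adjusted p = 0.0268). The 16 other tested members were not called, and 4 of the 23 were called without LFC replicate 5. Without LFC replicate 5, HFC replicate 13 and HFC replicate 14 together, 3 of the 23 were called. AQP4, the water channel of astrocyte end-feet, had medians of 23.5 CPM on the poor side and 16.6 CPM on the rich side (log2 fold change -0.40, adjusted p = 0.3). VIM, vimentin, had medians of 206 and 606 CPM (log2 fold change 1.86, adjusted p = 0.0647). KCNJ10, a potassium channel of astroglia, did not pass the filter on low counts and had 4 counts in all poor libraries against 454 in all rich ones.

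Genes of neurons and axons were not called. Of 11 tested, 0 were called by edgeR in either direction, 3 were under an unadjusted p of 0.05 and DESeq2 called 1 of them lower. Their median log2 fold change was -0.30, and their summed level was 1044 to 1212 CPM on the poor side and 712 to 1101 CPM on the rich side. NEFL, the light neurofilament, had medians of 139 CPM on the poor side and 170 CPM on the rich side (log2 fold change 0.20, adjusted p = 0.434). SNAP25, which drives fusion of secretory vesicles and is made by endocrine cells too, had medians of 306 and 213 CPM (log2 fold change -0.49, adjusted p = 0.09). Of the hypothalamic peptide genes, 2 passed the filter, 0 were called by edgeR or DESeq2 and 1 was under an unadjusted p of 0.05. CARTPT, a peptide precursor of hypothalamic neurons, had a log2 fold change of 1.78 (adjusted p = 0.184), and PDYN, whose dynorphin is stored with vasopressin, one of 1.09 (adjusted p = 0.276). Of the receptors for both hormones, AVPR2 had medians of 1.39 and 1.82 CPM (log2 fold change 1, adjusted p = 0.221, and 0.17 without LFC replicate 5) and AVPR1B medians of 160 and 217 CPM (log2 fold change 0.04, adjusted p = 0.975). AVPR1A and OXTR did not pass the filter.

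**Figure D3:**
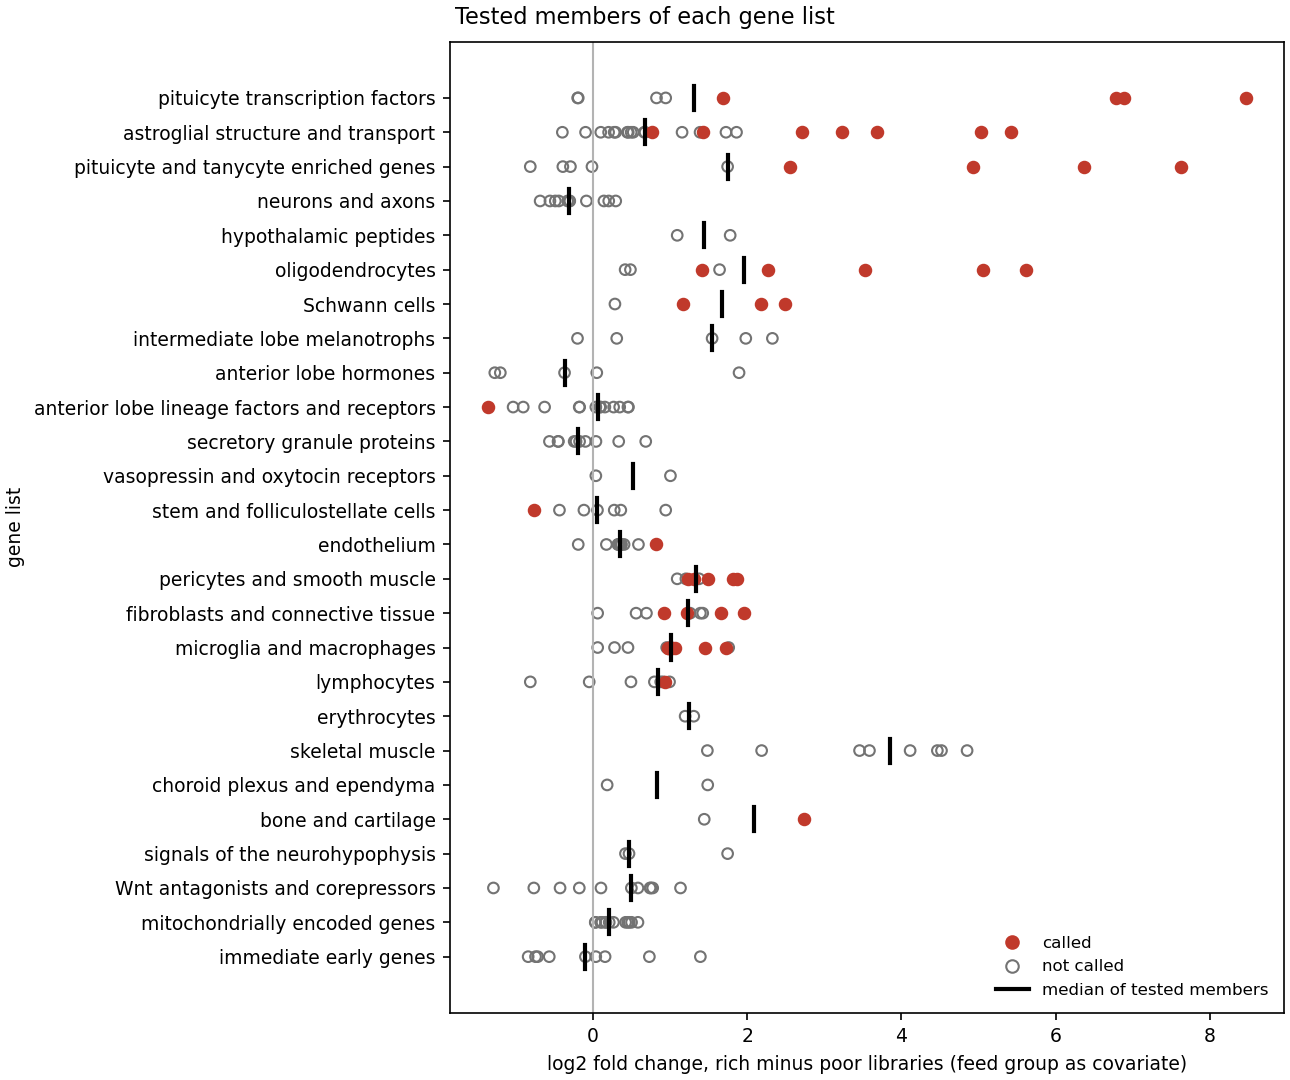
Log2 fold change of rich minus poor libraries (horizontal axis) for the tested members of 26 gene lists (vertical axis), with called genes in red, other genes as open circles and the list median as a black bar. The called glial genes reach from 0.76 to over 8, where the RAX point rests on 1 poor count, while neuronal genes lie about 0 and muscle genes lie to the right with none called.

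Several myelin genes were called higher. Of 8 tested oligodendrocyte genes, 5 were called higher and 0 lower, against 1.96% and 0.356% of all genes. Their median log2 fold change was 1.96. OLIG1 and SOX10 among them passed the filter through the rich side alone. OLIG1, a transcription factor of the lineage, ranged from 0 to 0.329 CPM on the poor side and from 1.52 to 18.8 CPM on the rich side (log2 fold change 5.62, SE 0.755, adjusted p = 0.00102). SOX10, which also marks Schwann cells, ranged from 0.0629 to 0.412 CPM and from 1.14 to 5.12 CPM (log2 fold change 3.53, SE 0.45, adjusted p = 0.00056). Both separated the sides.

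UGT8, the enzyme of galactocerebroside synthesis, and CLDN11, the claudin of myelin, were called at log2 fold changes of 2.28 and 1.41. Neither was called without LFC replicate 5, HFC replicate 13 and HFC replicate 14 together, and 3 oligodendrocyte genes were then called. MBP, myelin basic protein, had medians of 101 and 128 CPM and was not called (log2 fold change 0.49, adjusted p = 0.265). MAG, the myelin-associated glycoprotein, did not pass the filter and had 17 counts on the poor side against 837 on the rich side. Of 4 tested Schwann cell genes 3 were called higher, against 1.96% of all genes, NGFR at 2.49, PMP2 at 2.18 and PMP22 at 1.17. Their adjusted p-values were between 0.0196 and 0.028, and 0 of the 3 were called without HFC replicate 9 and 1 without LFC replicate 5. The number was also 0 without LFC replicate 5, HFC replicate 13 and HFC replicate 14 together.

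The rich libraries were not alike. HFC replicates 16 and 11 had the highest levels of RAX, LHX2, OTX2, SLCO1C1, COL25A1, RPE65, CRABP1 and NGFR of all libraries. OTX2 was at 59.5 and 28.5 CPM in these libraries and between 1.09 and 6.35 CPM in the other 6 rich libraries. UGT8 ran the other way. Among the rich libraries it was lowest in HFC replicates 16 and 11, at 0.542 and 0.629 CPM, against 3.89 CPM in HFC replicate 14 and 4.35 CPM in HFC replicate 13. With both libraries left out, 347 genes were called, among them 235 of the 332, and RAX, LHX2 and OTX2 kept log2 fold changes of 7.55, 5.99 and 5.40.

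**Figure D4:**
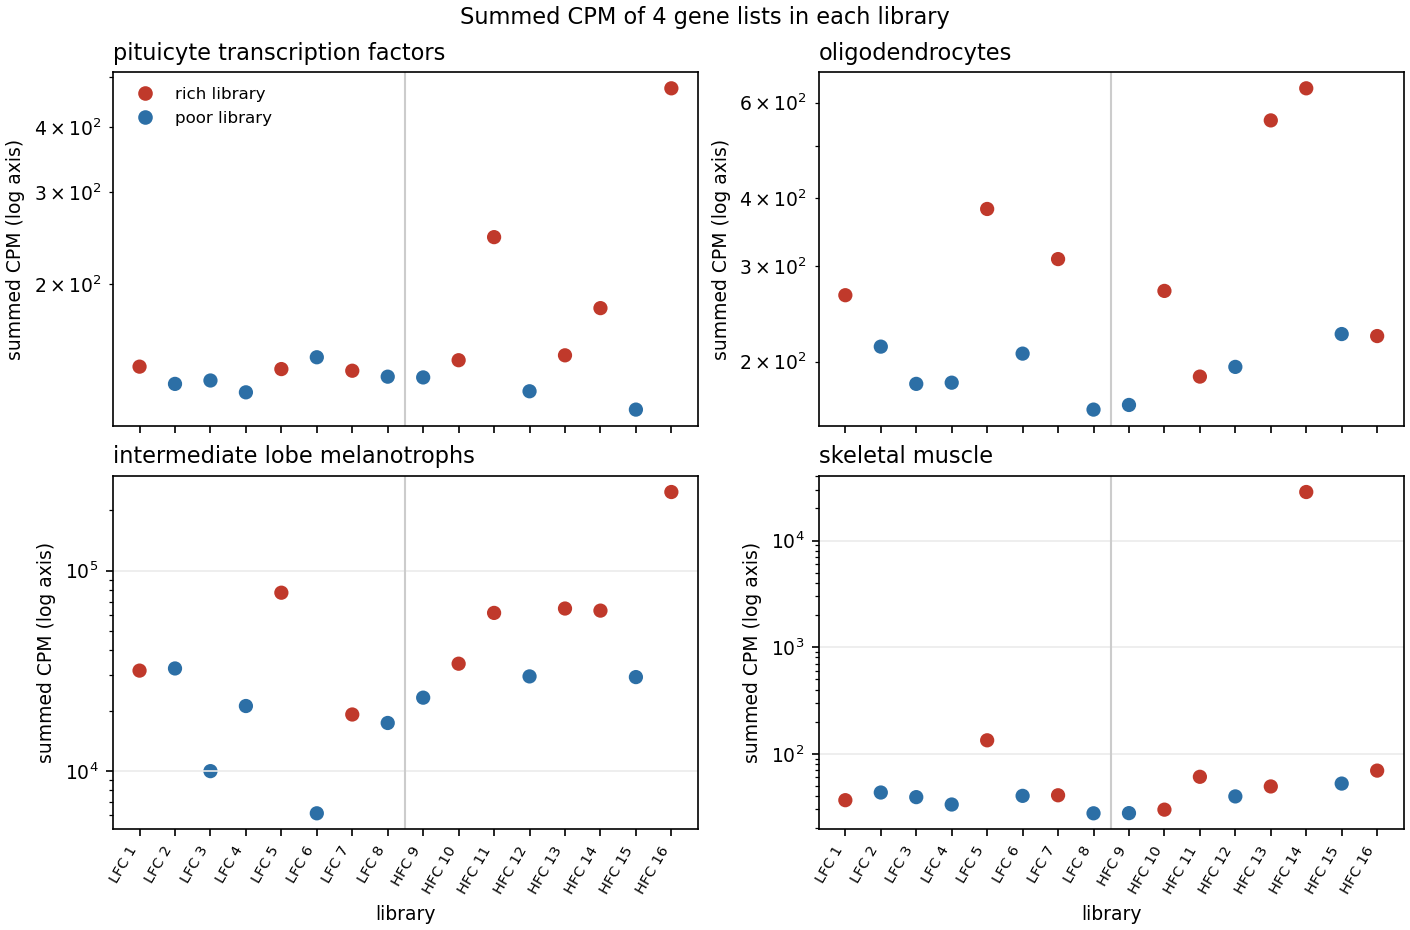
Summed CPM (log axis, vertical) of the tested members of 4 gene lists in each library (horizontal axis), with rich libraries in red and poor libraries in blue. HFC replicates 16 and 11 are highest for pituicyte transcription factors, HFC replicates 14 and 13 for oligodendrocyte genes, HFC replicate 16 for melanotroph genes, and HFC replicate 14 alone is high for skeletal muscle.

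Some genes of pericytes, fibroblasts and microglia were also called higher. Of 8 tested genes of pericytes and smooth muscle, 5 were called higher and 0 lower, against 1.96% and 0.356% of all genes. Their median log2 fold change was 1.34. Their summed level was 42.9 to 125 CPM on the poor side and 93.1 to 305 CPM on the rich side. PDGFRB, the growth factor receptor of pericytes, ranged from 13.2 to 31.6 CPM and from 20 to 91.8 CPM (log2 fold change 1.3, SE 0.241, adjusted p = 0.0123). ANPEP, an aminopeptidase of brain pericytes, had a log2 fold change of 1.82 (SE 0.354, adjusted p = 0.0173) and did not overlap between the sides. CSPG4, MYH11 and TAGLN were called with overlap. Without LFC replicate 5, 1 of the 8 was called, and the same number without LFC replicate 5, HFC replicate 13 and HFC replicate 14 together. Of 10 endothelial genes, VWF alone, the clotting factor carrier of endothelium, was called, at 0.82 (SE 0.184, adjusted p = 0.0298). The median was 0.35, and VWF did not pass in 7 of the 16 fits that left out 1 library, LFC replicates 3, 4, 5, 6 and 8 and HFC replicates 9 and 15.

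Of 10 tested fibroblast genes, 4 were called higher and 0 lower, against 1.96% and 0.356% of all genes. Their median log2 fold change was 1.24. Their summed level was 305 to 776 CPM on the poor side and 588 to 1325 CPM on the rich side. COL3A1, a fibrillar collagen, ranged from 58.9 to 129 CPM and from 140 to 457 CPM, without overlap (log2 fold change 1.66, SE 0.267, adjusted p = 0.00501). MGP, COL1A1 and OGN were called with overlap. The count was 1 without LFC replicate 3 or 4 or HFC replicate 9 or 12, and 2 without LFC replicate 5, 6, 7 or 8 or HFC replicate 14. It was also 2 without LFC replicate 5, HFC replicate 13 and HFC replicate 14 together. Of 2 tested cartilage genes, COL9A1 was called at 2.74 (SE 0.577, adjusted p = 0.0249) and COL2A1 was not. COL9A1 did not pass without LFC replicate 5, HFC replicate 9 or HFC replicate 15.

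Of 13 tested genes of microglia and macrophages, 7 were called higher and 0 lower, against 1.96% and 0.356% of all genes. Their median log2 fold change was 1.01. Their summed level was 386 to 618 CPM on the poor side and 546 to 1406 CPM on the rich side. TMEM119, a marker of microglia, ranged from 0.970 to 4.21 CPM and from 4.34 to 11.5 CPM, the sides being adjacent but not overlapping (log2 fold change 1.72, SE 0.292, adjusted p = 0.00713). AIF1, TYROBP, C1QA, C1QB, C1QC and CSF1R had log2 fold changes between 0.97 and 1.46. LFC replicate 5 was the highest rich library in AIF1, TYROBP, C1QA and C1QB. Of the 13, 1 was called without LFC replicate 5 or 6 or HFC replicate 9 or 15, 2 without HFC replicate 12, 3 without LFC replicate 8 or HFC replicate 14, and 4 without LFC replicate 3. Without LFC replicate 5, HFC replicate 13 and HFC replicate 14 together 0 were called by edgeR, and the median log2 fold change was 0.69. With the gene span index as a further covariate, 1 of the 13 was called. Of 8 lymphocyte genes, CD2 alone was called, at 0.94, and it did not pass without LFC replicate 5 or 8 or HFC replicate 9, 12 or 15.

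Skeletal muscle genes were not called, 0 of 8 tested by edgeR or DESeq2, with 3 under an unadjusted p of 0.05. The list held 17 genes found in the counts, and those beyond the 8 did not pass the filter. ACTA1, the actin of skeletal muscle, ranged from 3.37 to 9.26 CPM on the poor side and from 1.84 to 17514 CPM on the rich side, with a rich median of 3.07 CPM. HFC replicate 14 was the high library. The median log2 fold change of the list was 3.85 with that library and 0.38 without it. Of 2 red blood cell genes, 0 were called by edgeR, whereas DESeq2 called both and both were under an unadjusted p of 0.05. HBB, a globin chain, had medians of 235 and 449 CPM (log2 fold change 1.31, adjusted p = 0.11).

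Few endocrine genes were called. POMC, the precursor of corticotropin and melanotropin, ranged from 5926 to 32172 CPM with a median of 21881 on the poor side and from 18908 to 243007 CPM with a median of 61852 on the rich side. The sides overlapped, 6 of 8 rich libraries lay above the highest poor one, and the difference did not pass (log2 fold change 1.55, SE 0.453, adjusted p = 0.0773). PAX7 and PCSK2, which mark melanotrophs, had log2 fold changes of 2.33 and 1.98 with adjusted p-values of 0.369 and 0.392. Their highest rich values were 333 and 2595 CPM against rich medians of 1.97 and 24.7. None of the 5 tested melanotroph genes was called by edgeR or DESeq2 and 1 was under an unadjusted p of 0.05, and their summed level was 6144 to 32474 CPM on the poor side and 19129 to 246788 CPM on the rich side.

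The 5 tested hormone genes of the anterior lobe were not called by edgeR or DESeq2. Of them 1 was under an unadjusted p of 0.05, and the median log2 fold change was -0.37. It was -0.82 if LFC replicate 1 was left out, -0.037 if HFC replicate 15 was, and 0.25 in LFC alone. GH1, growth hormone, ranged from 30386 to 132872 CPM with a median of 64334 on the poor side and from 9641 to 81098 CPM with a median of 30152 on the rich side (log2 fold change -1.27, SE 0.491, adjusted p = 0.168). PRL, prolactin, had medians of 27967 and 5163 CPM (log2 fold change -1.20, SE 0.657, adjusted p = 0.287). The ranges of both overlapped widely. CGA, the common subunit of glycoprotein hormones, was at 1689 CPM in HFC replicate 16 and between 10830 and 29950 CPM in the other rich libraries, with medians of 19328 on the poor side and 23160 on the rich side. TSHB, the subunit of thyrotropin, was at 0.0602 CPM in HFC replicate 16 and at 1.35 CPM in HFC replicate 11, whereas the other rich libraries lay between 448 and 1548 CPM. Its medians were 91.6 CPM on the poor side and 660 CPM on the rich side, 5 of 8 rich libraries lay above the highest poor one, and it was not called (log2 fold change 1.89, adjusted p = 0.307).

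Genes lower in the rich libraries were fewer and changed less. POU1F1, the factor of the growth hormone, prolactin and thyrotropin lineages (chromosome 13, 168510671 to 168530394), ranged from 108 to 204 CPM with a median of 166 on the poor side and from 24.4 to 109 CPM with a median of 55.0 on the rich side. The sides overlapped only at the highest rich library, LFC replicate 7, and the lowest poor one, HFC replicate 12. The log2 fold change was -1.36 (SE 0.287, adjusted p = 0.0251), and POU1F1 was the 1 gene called among 14 tested lineage factors and receptors of the anterior lobe. It did not pass without LFC replicate 5 (adjusted p = 0.0621), without HFC replicate 9 (adjusted p = 0.0827) or without LFC replicate 5, HFC replicate 13 and HFC replicate 14 together (log2 fold change -1.10, adjusted p = 0.0897). Nor was POU1F1 called with the gene span index as a further covariate (adjusted p = 0.056). Summed hormone transcripts of the anterior lobe were at 80200 to 169292 CPM on the poor side and at 13949 to 114960 CPM on the rich side, and their part in the lower level of POU1F1 was not tested.

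RAB27A, a small GTPase that docks secretory granules, ranged from 106 to 204 CPM on the poor side and from 35.1 to 138 CPM on the rich side (log2 fold change -1.15, SE 0.247, adjusted p = 0.0278). It was not called with the gene span index as a further covariate (adjusted p = 0.056). SH3GL2, the endophilin of synaptic vesicle recycling, ranged from 106 to 157 CPM and from 53.2 to 99.0 CPM, without overlap (log2 fold change -0.73, SE 0.147, adjusted p = 0.0214). SLC6A15, a carrier of neutral amino acids, ranged from 17.1 to 36.3 CPM and from 7.11 to 19.2 CPM (log2 fold change -1.24, SE 0.224, adjusted p = 0.0108). PGBD5, a gene derived from a transposase, separated the sides with a small change, from 37.2 to 51.3 CPM and from 23.9 to 36.6 CPM (log2 fold change -0.62, SE 0.114, adjusted p = 0.0117).

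The remaining lower genes named by the same rule were C1orf87, CNTNAP4, GPRASP1, NYAP1 and SIDT1, with log2 fold changes between -1.80 and -0.58, and C1orf116, SLC12A1, GABRE and HEPACAM2, between -1.56 and -1.42. Of the 16 fits that left out 1 library, C1orf116 and GABRE were each called in 5, SLC12A1 in 8 and HEPACAM2 in 12. C1orf116 and GABRE were not called without HFC replicate 14 (adjusted p = 0.0726 and 0.0693). C1orf87, CNTNAP4 and GPRASP1 separated all libraries of the sides. C1orf87 passed the filter on low counts through the poor side alone, where it was high. Its call and its separation are therefore no support for the split. ALDH1A2, which makes retinoic acid and is found in pituitary stem and folliculostellate cells, ranged from 239 to 300 CPM on the poor side and from 75.8 to 223 CPM on the rich side, without overlap (log2 fold change -0.76, SE 0.190, adjusted p = 0.0464). It was not called without HFC replicate 14 (adjusted p = 0.0764) and was called in 5 of the 16 fits that left out 1 library. Of 10 tested secretory granule genes, 0 were called by edgeR and 1 by DESeq2, 1 was under an unadjusted p of 0.05, and the median was -0.20.

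Lists of signals, Wnt antagonists, mitochondrial genes and immediate early genes showed 0 genes called by edgeR in either direction. DESeq2 called 1 signal gene higher, and it called 1 Wnt gene higher and 2 lower, as edgeR did without LFC replicate 7. Of the genes in these lists, 1 of 3, 4 of 11, 2 of 13 and 2 of 9 were under an unadjusted p of 0.05. FGF10, a growth factor made by the neurohypophysis during development, had medians of 3.80 and 7.79 CPM (log2 fold change 1.75, adjusted p = 0.131). The 11 Wnt antagonists and corepressors had a median log2 fold change of 0.50, which was 0.28 without LFC replicate 5. The 13 mitochondrially encoded genes had one of 0.21, which was 0.018 without HFC replicate 16.

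The difference between the sides was then compared between the feed groups with an interaction term. No gene was called by edgeR (0 of 14316, smallest adjusted p = 0.926, with 375 genes, 2.62%, under an unadjusted p of 0.05), none by limma-voom and 1 by DESeq2. That gene, ARRDC2, was named after its values were seen (log2 difference -1.60, SE 0.316, DESeq2 adjusted p = 0.00552). Among LFC libraries alone, 3 rich and 5 poor, 20 genes were called, all higher. Among HFC libraries alone, 5 rich and 3 poor, 0 were called by edgeR (smallest adjusted p = 0.0972), and 1207 genes, 8.3% of those tested there, were under an unadjusted p of 0.05. RAX, LHX2 and CRYM differed by 3.72, 4.86 and 5.10 in mean log2 CPM within LFC and by 5.96, 6.48 and 6.64 within HFC.

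Finally, the labelled comparison of HFC with LFC was made with the side in the fit. No gene was called by edgeR with the side (0 of 14316, 480 or 3.35% under an unadjusted p of 0.05) or without it (0, 834 or 5.83%). DESeq2 and limma-voom with the side called 0 as well, with 636 and 422 genes under an unadjusted p of 0.05. The study did report genes differing between these feed groups, by DESeq2 at the same adjusted p and fold thresholds. DESeq2 was not run here without the side, so the counts of 0 are not a repeat of that comparison. The study also measured chosen genes by qPCR in the same pigs and reported that they bore out its RNA-seq results. In this breed it related higher POMC to higher feed conversion. The text of the study spells out 35 genes for feed conversion in these animals, a part of the genes it lists. They were chosen on these libraries, so neither their direction nor their share below is independent evidence. Of the 35, 10 were called higher in rich libraries and 0 lower (28.6%, against 1.96% of all genes called higher), namely CRYM, ANO1, APOD, APOA1, SOX8, AIF1, MT3, C4A, RBPMS and ARRB1. The whole list had a median log2 fold change of 0.80 between the sides. These calls rested on single libraries in part. The count was 3 without LFC replicate 5 or HFC replicate 9 or 12, 4 without LFC replicate 3, 5 without LFC replicate 6 or 8 and 6 without LFC replicate 4, and it was 7 without HFC replicate 14. It was 2 without LFC replicate 5, HFC replicate 13 and HFC replicate 14 together.

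APOA1, the main protein of high-density lipoprotein, ranged from 9.45 to 29.2 CPM on the poor side and from 39.2 to 175 CPM on the rich side, without overlap (log2 fold change 2.16, SE 0.315, adjusted p = 0.00226). RBPMS, an RNA-binding protein, also separated the sides (log2 fold change 1.3, SE 0.239, adjusted p = 0.0117). APOD and ANO1, a lipocalin of glia and a chloride channel, overlapped between the sides at log2 fold changes of 2.3 and 2.45. APOD was called in 9 and ANO1 in 6 of the 16 fits that left out 1 library. Without HFC replicate 14 the adjusted p of ANO1 was 0.0574.

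With the side in the fit, the HFC minus LFC log2 fold change of CRYM went from 2.18 to 0.82, that of ANO1 from 1.66 to 0.71 and that of SOX8 from 1.59 to 0.89. Over the 10 called genes the median went from 0.62 to 0.30, and over the 25 others from 0.61 to 0.38. The change was smaller in size with the side in 30 of the 35 genes. The 35 were chosen on these libraries and the feed groups were uneven between the sides, so a decrease was likely beforehand. The share over all genes was not counted. NR4A3, NR1H3, APOE, FRZB and NR4A2 moved least. NR4A3, a nuclear receptor of the immediate early response, went from -1.25 to -1.26, and NR1H3, a liver X receptor, from 0.86 to 0.83. POMC went from 1.36 to 0.89. The number under an unadjusted p of 0.05 among the 35 was 17 without the side and 10 with it. Both fits used the same libraries, and the shift between them was not tested.

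**Figure D5:**
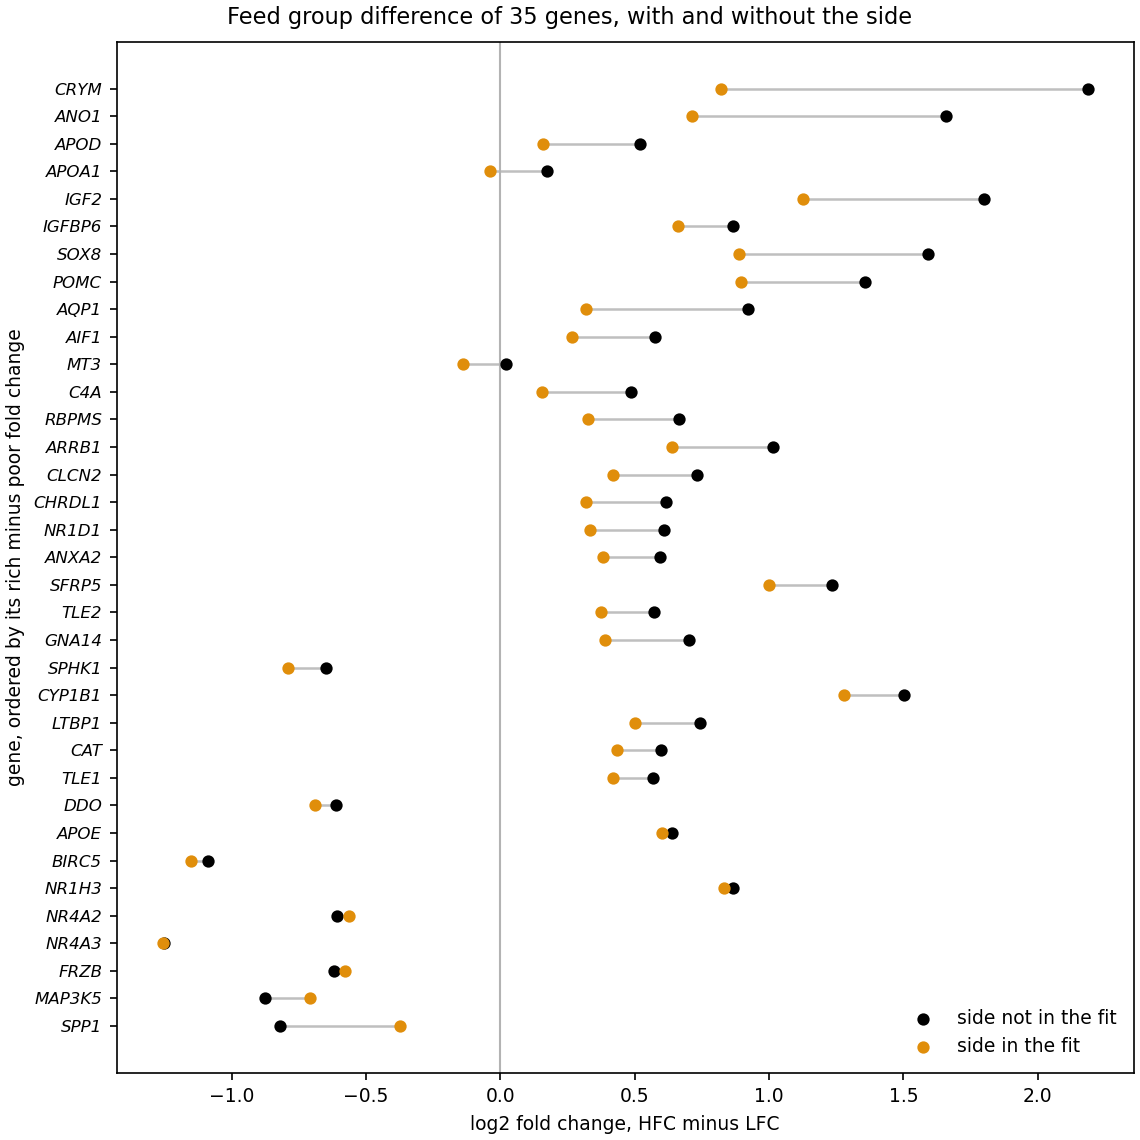
Log2 fold change of HFC minus LFC (horizontal axis) for 35 genes the study named (vertical axis, ordered by their rich minus poor fold change), with black points for the fit without the side and orange points for the fit with it. The points of CRYM, ANO1 and SOX8 move furthest toward 0, and those of NR4A3 and NR1H3 nearly coincide.

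The calls differed in how far they rested on single libraries. Of 65 named genes called, 27 were called in all 16 fits that left out 1 library, and all 65 kept their direction in the fits that tested them, which were all 16 for 64 of them and 12 for C1orf87. A gene called on all 16 libraries can hardly change sign when 1 is left out, so the kept direction is no separate support. RAX, LHX2, OTX2, CRYM, SLCO1C1, COL25A1, HEPACAM, FABP7, OLIG1, SOX10, RNASE1, RPE65, SCRG1, TSHR and NES were among the 27. All of these but CRYM and NES had passed the filter on low counts through the rich side alone. Their repeated calls are therefore no support for the split. CRABP1, PTN, APOA1, COL3A1, TMEM119, PDGFRB, SLC6A15 and PGBD5, whose levels reached the filter minimum on both sides, were also among the 27. Without HFC replicate 14, 53 of the 65 were called. Without LFC replicate 5, HFC replicate 13 and HFC replicate 14, 26 were called, among them RAX at a log2 fold change of 8.75 and CRYM at 5.87. With the gene span index as a further covariate, 48 were called.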

How the data were processed

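The authors deposited raw read counts per gene for the 16 pituitary libraries as whole numbers, without normalisation. Per the labels and the methods, libraries were made with a poly(A) TruSeq kit that keeps no strand and were run as single-end reads, each in 4 technical repeats. The submitters' processing notes name FastQC, STAR, RSEM and DESeq2 and the assembly Sscrofa11.1, and the methods also name Flexbar and Bowtie 2. Counts of overlapping, antisense and near-identical genes (C4A, mitochondrial genes with nuclear copies) are therefore uncertain. A second deposited table, of the authors' own comparison (means, fold, log2 fold, p-value and adjusted p-value), was used for gene names and coordinates only, which are other columns of that deposited table. Symbols came from it for 10091 genes, from a table of identifiers for 5454, and by an overlap of at least 50% with a named RefSeq gene for 286. No symbol was found for 10049 genes.

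Sides were fitted with edgeR 4.0.16 in R 4.3.3 (TMM, filterByExpr on the side, glmQLFit and glmQLFTest, feed group as covariate) on all 16 libraries, and 11561 of 25880 genes were removed as low (8 libraries at 0.581 CPM were needed, the feed group not being part of the filter, the permutation tests or the counts without overlap). The call needed a Benjamini-Hochberg adjusted p up to 0.05 and a 1.3-fold change or more. The SE of a log2 fold change was taken as its size over the square root of F. CPM values are TMM-scaled, and log2 CPM used a prior count of 2. Total counts ranged from 10972583 to 23060458 per library. Single measures were compared in R by exact permutation over the 12870 assignments of 8 of 16 libraries. Intervals are exact binomial ones from scipy 1.17.1. The code was tested on simulated counts.

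Named genes were up to 6 called members of each of 28 lists with the largest changes, with hormones and receptors, the 15 higher and 10 lower called genes with the smallest adjusted p, and the 8 higher and 5 lower with the largest fold at a mean of at least 1 CPM. NDRG2 and C1QC and the uncalled members named in the text were added to complete their lists. The sides, members, lists and alternatives were chosen with earlier results of these data known. Alternatives were DESeq2 1.42.0, limma-voom (limma 3.58.1), RLE and upper quartile scaling, omission of the 10 most abundant genes, further filters and thresholds, other covariates and sides, single feed groups, and each library left out. Leaving out HFC replicates 11 and 16 together was added after the data were seen. No sequences are shown, and some genes are not reported here.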

Additional observations from a re-analysis of the deposited data

Results flagged for a closer look

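In 8 of 58 checks of a list's summed level or of a library measure on 1 side, a single library lay apart from the other 7 (gap to the nearest over the whole range above 0.526, log2 of the summed CPM). Chance alone gives about 1 in 20, or 2.9 of 58. HFC replicate 16 was apart on the rich side in pituicyte transcription factors, at 8.89 against 7.10 to 7.95 in the others, in lineage factors and receptors of the anterior lobe, at 7.80 against 9.63 to 10.43, and in vasopressin and oxytocin receptors, at 2.31 against 6.21 to 8.72. In the last list AVPR1B, the receptor of corticotrophs, was at 2.41 CPM in that library and at 71.1 to 421 CPM in the other rich ones.

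HFC replicate 14 was apart in skeletal muscle genes, at 14.80 against 4.95 to 7.07. LFC replicate 5 was apart in microglia and macrophage genes, at 10.46 against 9.10 to 9.71. On the poor side, HFC replicate 12 was apart in lineage factors and receptors of the anterior lobe, at 10.56 against 9.99 to 10.19, LFC replicate 2 in secretory granule proteins, at 15.53 against 14.83 to 15.11, and LFC replicate 3 in mitochondrially encoded genes, at 13.82 against 14.91 to 15.49. What lies behind these libraries was not tested.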

How the results depend on the processing

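All 332 genes that followed the split, or all of them that an alternative tested, kept their direction under every alternative. These fits reuse libraries of the main fit, so the kept direction is no separate support. The number called did not hold. DESeq2 called 1004 (750 higher, 254 lower), limma-voom 205 (164, 41) and the fit without feed group 712 (573, 139). The gene span index as a further covariate gave 265 (224, 41). The continuous mean of the split genes gave 1272 (881, 391), a count made without the 1.3-fold minimum of the others. An adjusted p of 0.01 left 48 (48, 0). Leaving out LFC replicate 5, HFC replicate 13 and HFC replicate 14 left 67 (63, 4), the lower ones being GPRASP1, PELI3, PGBD5 and CNTNAP4. LFC libraries alone gave 20 (20, 0) and HFC libraries alone 0 (0, 0). Without HFC replicates 11 and 16 there were 347, of which 93 were lower. Scalings and filters gave 241 to 381. Leaving out 1 library gave 80 to 534 genes, 73 to 449 higher and 3 to 87 lower. The count moved by over 1.5 times without LFC replicates 3 (169), 4 (174), 5 (80), 6 (165) and 8 (161) and HFC replicates 9 (82), 10 (534), 12 (194), 14 (203) and 15 (187). The interaction count of 0 became 1 under DESeq2. The feed group count was 0 in every fit made, none of which was DESeq2 without the side. The uncalled CGA (0.05) turned to -0.19 under limma-voom, -0.19 without LFC replicate 5, HFC replicate 13 and HFC replicate 14, -0.24 with the span index, -0.023 without feed group and -0.16 in HFC alone, and it ranged from -0.065 to 0.20 over the fits without 1 library. AVPR1B (0.04) turned to -0.16, -0.11 and -1.21 under limma-voom, the span index and HFC alone, and ranged from -0.18 to 0.51 over such fits. AVPR2 turned to -0.054 without LFC replicate 5, HFC replicate 13 and HFC replicate 14, and FSHB to 0.29 in LFC alone. The cause of these shifts was not tested. No paired analysis was possible because replicate numbers 1 to 16 are not shared between the groups. Genes with a handful of counts on the poor side limit the precision of their folds.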
